A study of Mus musculus with 12 samples.

Results

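Tumours that arose in mice carrying the fusion gene EWSR1-ATF1 at the Rosa26 locus were compared with skeletal muscle by RNA sequencing. The comparison takes all 6 tumours of the genotype Rosa26-LSL-EWSR1-ATF1 and the 1 skeletal muscle library, so it uses 7 of the 12 samples of the series. The 5 remaining samples are tumours with an engineered Ewsr1-Atf1 translocation, and they enter only where a fit to all 12 libraries is named. LSL stands for a lox-stop-lox cassette, which keeps the transgene silent until Cre recombinase removes the stop; the labels of these tumours do not name the source of Cre, the site of the tumours, or the age or sex of the mice. The muscle is labelled WT, and its sample name shares a number with 1 of the translocation tumours. No group received a drug. Tissue was collected and frozen at morbidity from the primary tumour, and total RNA was sequenced after removal of ribosomal RNA with a stranded kit. The tumours are numbered 1 to 6 in the order of their sample entries, and tumours 5 and 6 have sample names that differ only in the last digit. Nothing in the labels says that the 6 tumours came from separate animals, so the p-values below measure the spread between these samples and no more.

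EWSR1-ATF1 is the fusion that defines clear cell sarcoma, a soft tissue tumour of tendons and fascia with features of neural crest and melanocyte lineages. ATF1 is a leucine zipper transcription factor of the CREB family that binds cAMP response elements, and in normal cells it acts after protein kinase A phosphorylates it. The fusion joins the activating part of the RNA-binding protein EWSR1 to the DNA-binding part of ATF1 and activates cAMP response genes without that signal. Skeletal muscle, by contrast, is a tissue of contractile fibres rich in mitochondria, and it is the only normal tissue in the series; the labels do not say from which cell the tumours arose.

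The muscle library held 25037628 counts and the tumours 6817005 to 21493629. Levels are given as CPM, the usual unit that divides each count by the size of its library, with library sizes corrected by the trimmed mean of M-values (TMM), with a factor of 0.421 for muscle and 0.859 to 1.32 for the tumours. The genes of the muscle lists took 30.2% of all counts in muscle, 12.5% in tumour 1, 0.964% in tumour 3 and 0.111% to 0.224% in the other tumours, the most in tumour 1 and the next most in tumour 3. Transcripts with ribosomal RNA sequence took 30.0% of the counts of tumour 4 and 1.40% to 6.80% in the other tumours. Tumours 1 and 4 and the muscle had Xist and no or nearly no transcript of 4 Y-linked genes, and tumours 2, 3, 5 and 6 had the reverse, so the tumours came from both sexes and the muscle from a female. Spearman's rho over genes lay between 0.854 and 0.970 for the 15 pairs of tumours and between 0.681 and 0.804 for each tumour against muscle.

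Of 20120 genes with enough counts to test, 3145 (15.6%) were called higher and 3378 (16.8%) lower in the tumours. A call needed an adjusted p below 0.05 by the quasi-likelihood test of edgeR, adjusted after Benjamini and Hochberg, and a change of at least 1 on the log2 scale, and every called gene had all 6 tumours on its side of muscle. Without any test, all 6 tumours lay above muscle in 7706 genes (38.3%) and below it in 6118 (30.4%), and they lay at least 2-fold above it in 4467 (22.2%) and at least 2-fold below it in 3343 (16.6%). The spread in the test came from the 6 tumours alone, and the lone muscle library was assumed to vary as they do. An exact permutation test of 6 samples against 1 cannot give a one-sided p below 0.143. Counts were also simulated with the same library sizes and with 200 of 16259 genes changed. There the test found 51 of 100 genes changed by 4 on the log2 scale and 7 of 100 changed by 2. A far larger part of the genes was called in the data, and the adjustment depends on that part. These shares therefore do not measure how many changes were found here, and a gene that missed the threshold may still differ. The middle of the scale also depended on the scaling. The median log2 difference of all tested genes was 0.61 with TMM, and it moved by -0.60 when muscle, mitochondrial and model genes were left out of the factors and by -0.21 with DESeq2 size factors. Genes called higher made up 48.2% of all calls with TMM, 28.2% under the first of these scalings (1836 higher, 4677 lower) and 40.9% under the second (2740 higher, 3957 lower). In bulk tissue, fewer cells of a type and less RNA per cell cannot be told apart.

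**Figure D1:**
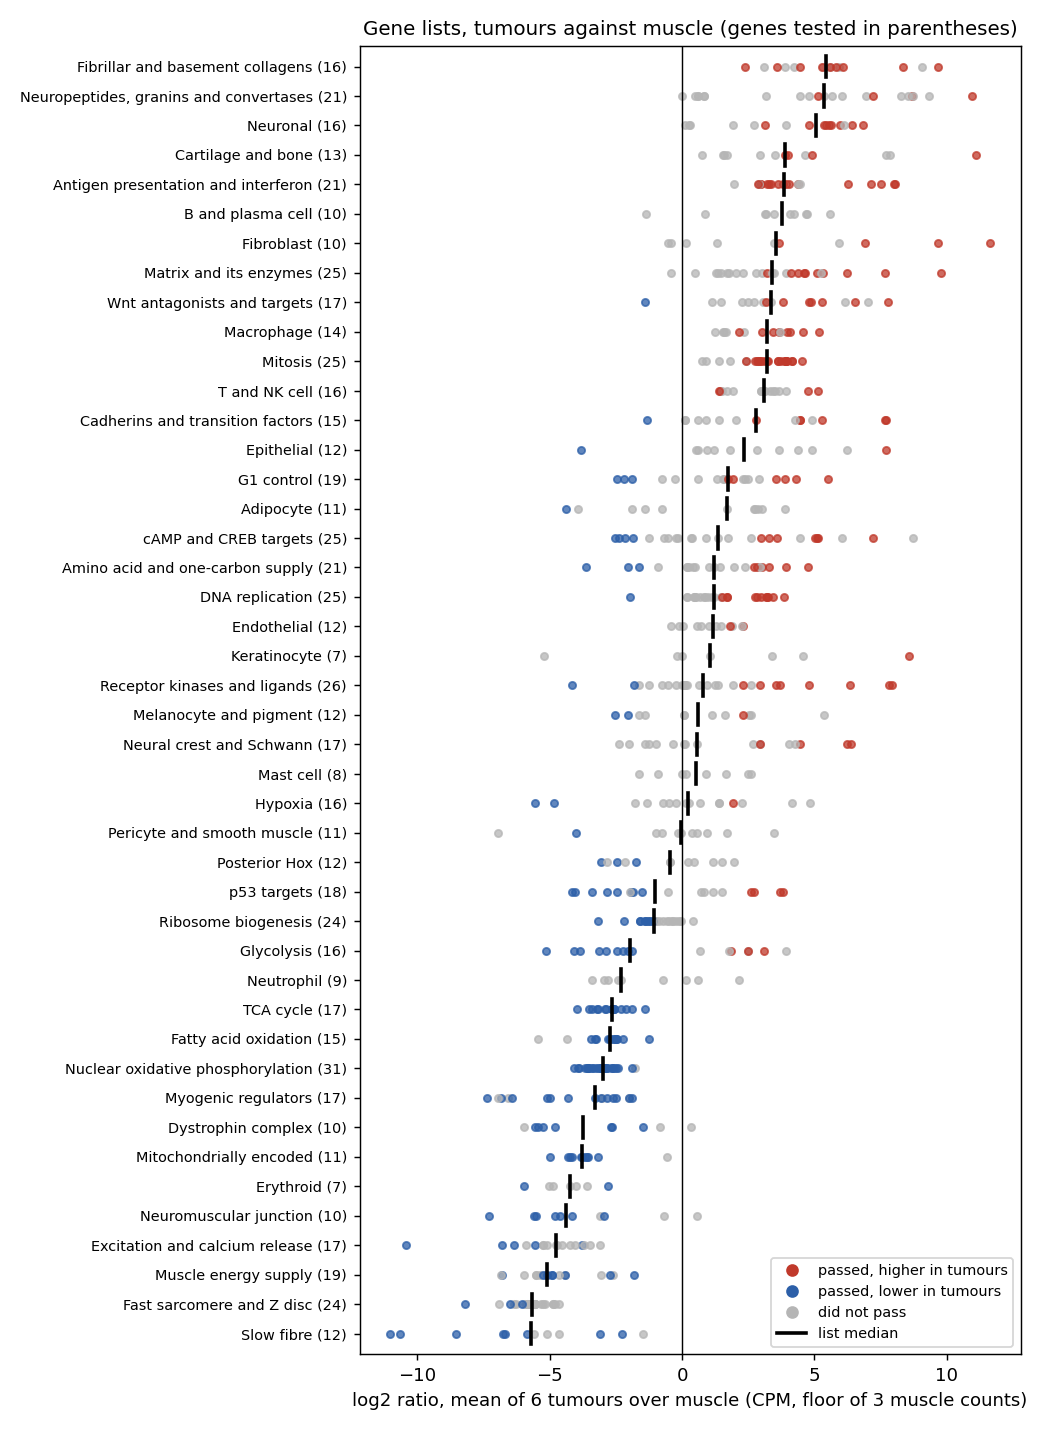
Each row is a gene list, each dot a gene of that list (log2 ratio of the mean CPM of 6 tumours to muscle) and each black mark the list's median. Muscle values and tumour means under the level of 3 counts in muscle were set to that level. Red and blue dots passed the test. Lists of muscle and mitochondria lie left of 0, and lists of secretory, neuronal, matrix and mitotic genes lie right of it.

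The genes that stood highest over muscle included matrix, adhesion and vesicle genes. The 10 called genes with the largest log2 difference at 50 CPM or more had no count in muscle, so each fold is a lower bound against a floor of 3 counts (0.285 CPM). Hapln1 (chromosome 13, 89539796 to 89611652, plus strand, mm10), the link protein that ties aggrecan to hyaluronan, had 196, 1421, 1288, 80.0, 1402 and 854 CPM in tumours 1 to 6, at least 3069-fold above muscle on average (adjusted p = 0.00917). Its lowest values were in tumours 1 and 4. Rab3c, a small GTPase of secretory vesicles, had 140.0 to 1095 CPM with a median of 824, at least 2426-fold higher (adjusted p = 0.00436). Fbn2, a microfibril protein, had 96.7 to 427 CPM (at least 881-fold, adjusted p = 0.00256), and Kcnk9, a potassium leak channel, 75.7 to 615 CPM (at least 707-fold, adjusted p = 0.00767). In these 4 genes muscle had no count, and the lowest tumour still had 75.7 CPM. Sez6l2 (16.2 to 408 CPM, at least 641-fold), the serine protease Tmprss6 (32.0 to 394 CPM, at least 594-fold), the desmosomal cadherin Dsg2 (45.8 to 306 CPM, at least 549-fold) and the axonemal dynein Dnah2 (55.4 to 177 CPM, at least 423-fold) were also called. Acan, the aggrecan core protein of cartilage, had 45.1, 1018, 373, 1517, 13.7 and 809 CPM, lowest in tumours 5 and 1 and highest in tumour 4. Its adjusted p of 0.0357 rose to 0.051 without tumour 2, 0.0545 without tumour 3 and 0.0610 without tumour 6. Dsg3, a desmosomal cadherin of squamous epithelium, had 10.8 to 225 CPM (adjusted p = 0.0301, and 0.0530 without tumour 6).

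Ranked instead by the gap between muscle and the tumour nearest to it, 6 more genes led. Pi16, a peptidase inhibitor that marks a type of fibroblast, had 1.14 CPM in muscle and 688, 3426, 2083, 4448, 4117 and 7168 CPM in the tumours. Pnoc, the precursor of the neuropeptide nociceptin, had 0.190 CPM in muscle, from 2 counts, and 182 to 2058 CPM in the tumours. Itgb7, an integrin subunit of lymphocytes, was among the most even of them: 0.664 CPM in muscle and 396, 418, 351, 437, 832 and 548 CPM in the tumours (log2 difference 9.53 ± 1.04 standard error, adjusted p = 0.00131). Celf4, a neuronal RNA-binding protein, had 0.190 CPM in muscle and 127 to 324 CPM in the tumours, Ptn, the growth factor pleiotrophin, 0.0949 and 96.5 to 307 CPM, and Tmem132d 0.0949 and 69.0 to 421 CPM. All 6 genes passed the test. That no tumour came near the muscle value in any of them follows from the ranking.

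**Figure D2:**
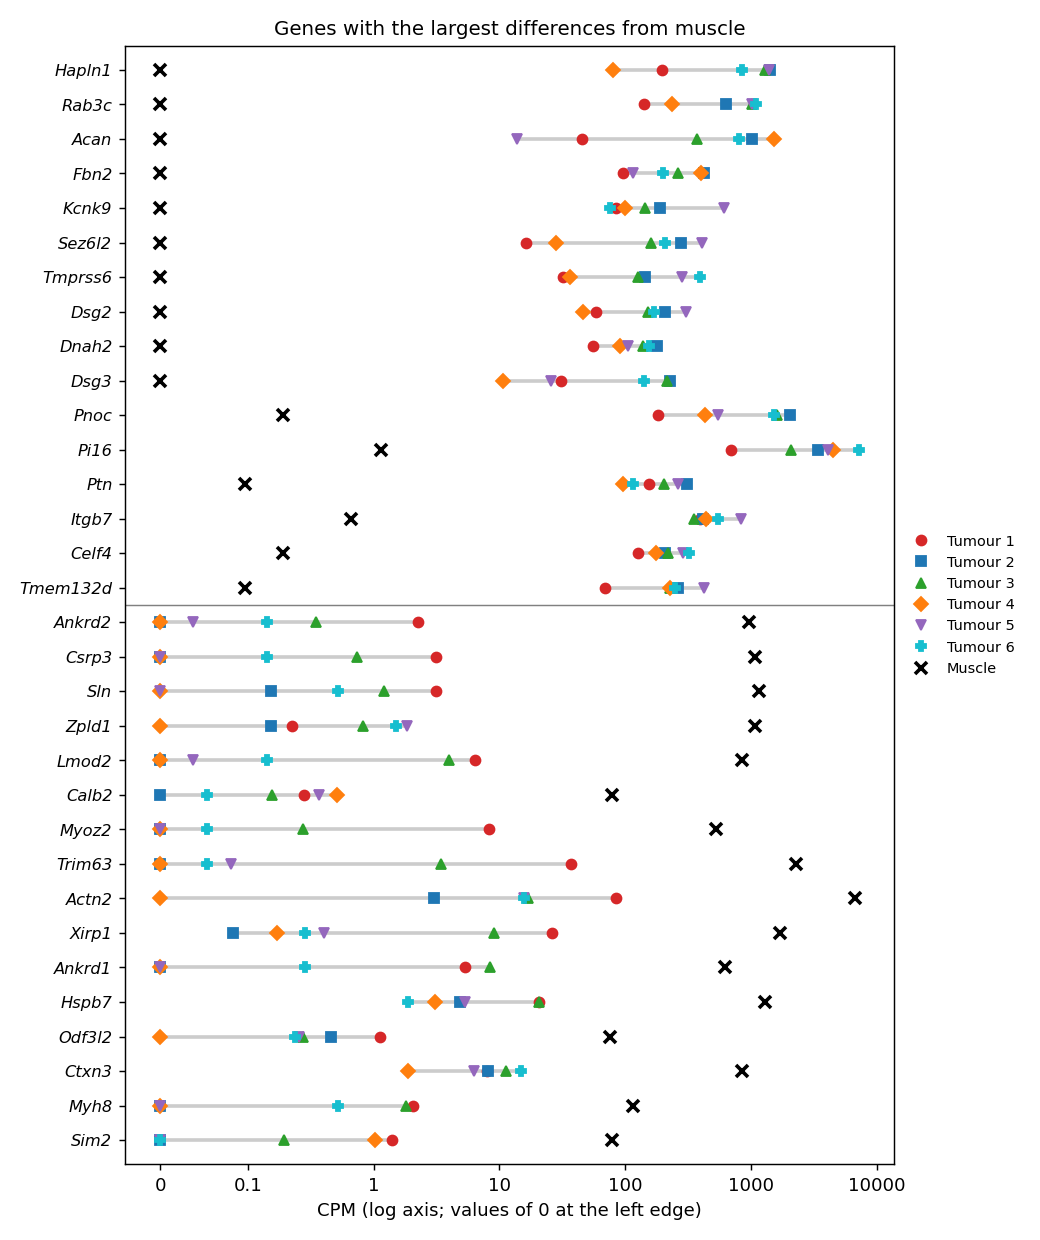
TMM-scaled CPM on a log axis of the genes that stood furthest above muscle and furthest below it; each dot is a tumour and the cross is the muscle library, with values of 0 at the left edge. That no tumour overlaps the muscle value follows from how these genes were chosen. Tumours 1 and 4 are often the lowest of the 6 among the genes that were higher.

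At the other end stood several genes of the muscle fibre. Ankrd2 (chromosome 19, 42036000 to 42045110, plus strand, mm10), a stretch-responsive protein of slow fibres, had 968 CPM in muscle and 2.23, 0, 0.351, 0, 0.0366 and 0.141 CPM in tumours 1 to 6 (log2 difference -10.94 ± 1.49, adjusted p = 0.00274). Csrp3, the muscle LIM protein, had 1073 CPM in muscle and at most 3.12 CPM in a tumour (-10.56 ± 1.74, adjusted p = 0.00542). Sln, sarcolipin, a brake on the calcium pump, had 1149 CPM and at most 3.12 CPM (-10.35 ± 1.51, adjusted p = 0.00338). Tumour 1 was the highest of the tumours in these 3 genes, and tumours 2, 4 and 5 had the lowest levels. Zpld1 fell from 1077 CPM to between 0 and 1.83 CPM (-10.34 ± 1.04, adjusted p = 0.00121), and Calb2, the calcium buffer calretinin, from 77.8 CPM to between 0 and 0.513 CPM (-8.50 ± 0.78, adjusted p = 0.00109). Lmod2, which lengthens thin filaments, fell from 854 CPM to between 0 and 6.36 CPM (adjusted p = 0.0135), and Actn2, the alpha-actinin of the Z disc, from 6682 CPM to between 0 and 84.5 CPM (adjusted p = 0.00922). Among the last genes of this rank, with tumour 1 the highest tumour in each, 3 calls were lost when a single tumour was left out. The differences stayed large: without tumour 3 they were -8.27 for Myoz2 and -8.28 for Xirp1 on the log2 scale. Myoz2 lost its call without tumour 3 (adjusted p = 0.0215, then 0.0521), Xirp1 likewise (0.0238, then 0.0541), and Trim63, a ubiquitin ligase of muscle wasting, when any of tumours 2 to 6 was left out (0.0440, then 0.0525 to 0.0937). By the nearest gap, Ankrd1, Hspb7, Odf3l2, Ctxn3, Myh8 and Sim2 followed. Hspb7, a small heat shock protein of heart and muscle, had 1285 CPM in muscle and 1.88 to 20.5 CPM in the tumours, and Ctxn3 846 and 1.88 to 14.9 CPM. Ankrd1 had 626 CPM in muscle and 0 to 8.38 CPM in the tumours, and Sim2, a bHLH transcription factor, 77.8 and 0 to 1.39 CPM.

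At the engineered loci, Atf1 itself was lower in the tumours. Mouse Atf1 (chromosome 15, 100227819 to 100261244, plus strand) fell from 93.1 CPM in muscle to 23.7, 19.4, 18.8, 23.4, 24.5 and 19.2 CPM (-2.11 ± 0.27, adjusted p = 0.00193). All 6 tumours lay well below muscle and close to each other. Ewsr1 had 141 CPM in muscle and 96.9 to 150.3 CPM in the tumours (-0.26 ± 0.35, adjusted p = 0.580), and the groups overlapped. The Rosa26 transcript Gt(ROSA)26Sor had 14.2 CPM in muscle, 0.725, 0.531, 0.390 and 1.20 CPM in the first 4 tumours, 5.60 CPM in tumour 5 and 5.69 CPM in tumour 6 (-2.57 ± 1.20, adjusted p = 0.129). All tumours lay below muscle, and tumours 5 and 6 stood apart from the other 4. Thumpd3, a neighbour of Rosa26, had 55.2 CPM in muscle and 9.57 to 28.2 CPM in the tumours (adjusted p = 0.0270, and 0.0535 without tumour 3 and 0.0561 without tumour 6), and Setd5 on its other side had 80.4 and 102 to 155 CPM (adjusted p = 0.162). Creb1, Crem and Taf15, relatives of the fusion partners, did not pass. Whether reads of the transgene were counted under Atf1 or Ewsr1 is not known from the sources used here, so these values do not measure the fusion.

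The contractile apparatus was lower in all tumours, but few of its genes passed the test while tumour 1 was in it. All 24 genes of the fast sarcomere and Z disc lay below muscle in all 6 tumours, and 3 of them were called, against 16.8% of all tested genes; without tumour 1 the count was 22. Acta1, skeletal alpha-actin, had 45849 CPM in muscle, 5514 CPM in tumour 1, 341 CPM in tumour 3 and 0.110 to 5.27 CPM in the other 4 tumours (-5.55 ± 3.47, adjusted p = 0.244; without tumour 1 -9.37, adjusted p = 0.0473). Myh2, a fast myosin heavy chain, had 1082 CPM in muscle, 77.7 in tumour 1, 5.11 in tumour 3 and at most 0.941 elsewhere (adjusted p = 0.0969, and 0.00475 without tumour 1). The order of muscle, then tumour 1, then tumour 3, then the rest held in 24 of 24 fast sarcomere genes and in 4 of 12 slow fibre genes. Over 103 genes of the muscle and muscle energy lists, the median level was 11.8% of muscle in tumour 1, 0.971% in tumour 3 and 0.0436% to 0.101% in the other 4. Of 12 slow fibre genes 8 were called lower and of 17 excitation and calcium release genes 5, which became 11 and 16 without tumour 1. The second of these counts was 2 without tumour 3, 3 without tumour 5 and 2 without tumour 6. Tnnc1 and Tnni1, troponins of slow fibres, fell from 342 CPM to between 0.366 and 15.6 CPM and from 301 CPM to between 0.171 and 13.9 CPM. Atp2a2, the calcium pump shared with many other cells, fell less and more evenly, from 1142 CPM to between 189.6 and 301 CPM (-2.25 ± 0.36, adjusted p = 0.00378).

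**Figure D3:**
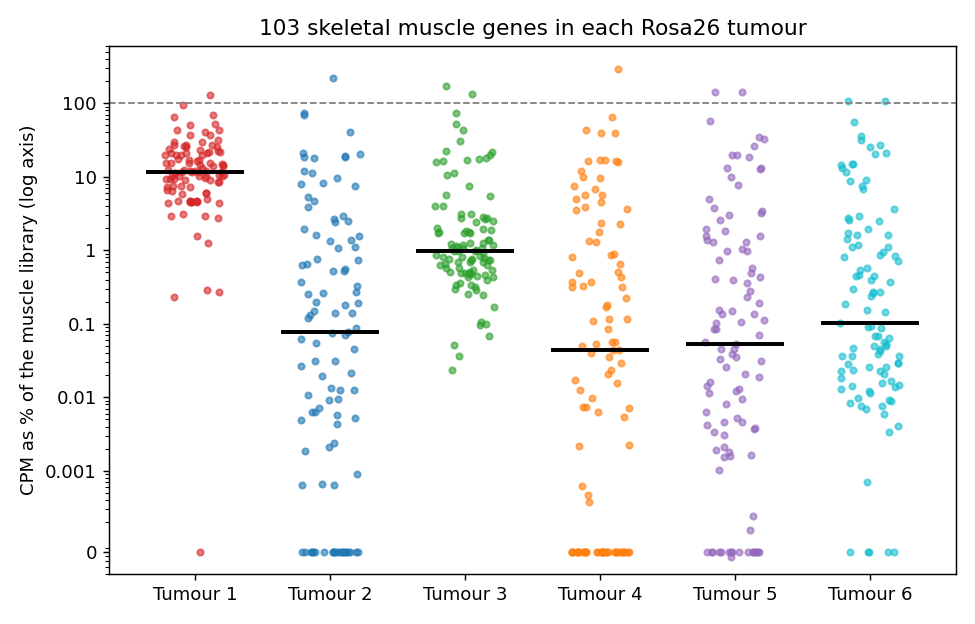
Level of each gene of the muscle and muscle energy lists (dots, 103 genes) as a percent of its level in the muscle library, on a log axis, for each of the 6 tumours; values of 0 are drawn at 0 and the bars are medians. The medians are 11.8% in tumour 1 and 0.971% in tumour 3, and between 0.0436% and 0.101% in tumours 2, 4, 5 and 6.

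Genes of the synapse on muscle, of the fibre membrane and of muscle identity were called in larger part. At the neuromuscular junction 7 of 10 genes were called lower, among them the acetylcholine receptor subunits Chrna1 (215 CPM in muscle, 0 to 5.97 CPM in the tumours, adjusted p = 0.0160), Chrnb1 (111 and 1.54 to 8.43 CPM, adjusted p = 0.00225) and Chrnd (13.2 and 0 to 0.390 CPM, adjusted p = 0.00296). Dok7 was another (50.8 and 0.546 to 2.23 CPM, adjusted p = 0.00121). In the dystrophin complex 7 of 10 were lower, against 16.8% of all tested genes. Dmd, dystrophin, fell from 1696 CPM to 156 CPM in tumour 1 and 6.32 to 33.4 CPM in the others (-5.45 ± 1.25, adjusted p = 0.0142). Of 17 myogenic regulators 13 fell and every one lay below muscle in all tumours. Myf5 and Myog, transcription factors of muscle precursors and of differentiation, fell from 8.92 CPM to at most 0.279 CPM and from 73.6 CPM to at most 2.12 CPM, and Mymk, which fuses myoblasts, from 5.69 CPM to at most 0.156 CPM. Myod1 had 22.5 CPM in muscle and 0.220 to 6.07 CPM in the tumours (adjusted p = 0.0527, and 0.0459, 0.0296 and 0.0452 without tumours 1, 5 and 6).

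Mitochondrial energy genes fell in all tumours, and their counts of calls moved little when tumour 1 was left out. All 17 genes of the citric acid cycle were called lower, against 16.8% of all tested genes, with a median log2 difference of -2.64 against 0.61 for all tested genes. Idh3a, a subunit of isocitrate dehydrogenase, fell from 737 CPM to 118, 43.3, 42.6, 12.5, 31.7 and 35.8 CPM (-3.96 ± 0.72, adjusted p = 0.00610). Tumour 4 was the lowest and tumour 1 the highest. Of 31 nuclear genes of oxidative phosphorylation 30 were called lower (median -3). Cox7b of complex IV fell from 697 CPM to between 7 and 75.2 CPM (adjusted p = 0.00488) and Atp5g1 of the ATP synthase from 455 CPM to between 27.8 and 51.0 CPM (adjusted p = 0.00117). The exception, Ndufa1, had 121 CPM in muscle and 8.71 to 56.6 CPM in the tumours (adjusted p = 0.0617, and 0.0103 without tumour 4). Of 11 tested genes encoded in the mitochondrion itself 10 fell (median -3.79). mt-Nd1 fell from 13842 CPM to 1794 CPM in tumour 1 and 211 to 756 CPM in the others (-4.24 ± 0.85, adjusted p = 0.00850). mt-Nd6 had 163 CPM in muscle and 33.3 to 249 CPM in the tumours (adjusted p = 0.664). mt-Co2 and mt-Co3 had 5.88 and 13.9 CPM in muscle beside 45524 CPM for mt-Co1; near-identical copies can take reads from such genes, and these values are uncertain. Of 15 genes of fatty acid oxidation 13 fell (median -2.7), led by Acadm (427 CPM to between 22.7 and 64.9 CPM, adjusted p = 0.00150). Cpt1b, the muscle carnitine transferase, had 58.4 CPM in muscle, 7.36 CPM in tumour 1 and at most 0.546 CPM in the rest (adjusted p = 0.0620, and 0.000974 without tumour 1).

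Sugar metabolism fell in the main, with a few genes higher. Of 16 glycolytic genes 9 fell and 3 rose (median -1.96), against 16.8% and 15.6% of all tested genes, so the higher share is near that of all genes. Gapdh fell from 6885 CPM to between 213 and 599.7 CPM (-4.07 ± 0.51, adjusted p = 0.00177), Gpi1 from 2418 CPM to between 122 and 203 CPM (-3.86 ± 0.38, adjusted p = 0.00121) and Ldha from 3318 CPM to between 198 and 751 CPM (-3.13 ± 0.65, adjusted p = 0.00964). The muscle forms Pfkm (4059 CPM to between 34.5 and 477 CPM, adjusted p = 0.00900) and Eno3 (9134 CPM to between 59.8 and 780.2 CPM, adjusted p = 0.00510) fell. Of their counterparts in other tissues, Pfkp, the platelet phosphofructokinase, rose from 9.20 CPM to between 32.2 and 70.2 CPM (2.50 ± 0.57, adjusted p = 0.0138), and Eno1 had 37.2 CPM in muscle and 66.2 to 262 CPM in the tumours (adjusted p = 0.116). Pgam1 rose from 1.99 CPM to between 8.2 and 33.3 CPM (adjusted p = 0.0334, and 0.0572 without tumour 6). Hk1 had 20 CPM in muscle and 37.1 to 101 CPM in the tumours (adjusted p = 0.0376, and 0.0526 to 0.0664 without tumour 2, 3, 5 or 6), while Hk2, the hexokinase of muscle, fell from 335 CPM to between 40.3 and 98.6 CPM (adjusted p = 0.00907). The 3 higher calls were 5 without tumour 1 and 1 without tumour 6. Slc2a4, the insulin-regulated glucose carrier, fell from 651 CPM to between 5.30 and 48.5 CPM (adjusted p = 0.00355), and the widespread carrier Slc2a1 had 12 CPM in muscle and 6 to 50.1 CPM in the tumours (adjusted p = 0.596).

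Of 21 genes of amino acid and one-carbon supply 6 rose and 3 fell, against 15.6% and 16.8% of all tested genes. Aldh18a1, which makes the proline precursor, rose from 6.83 CPM to 33.8, 182, 117, 87.1, 101 and 97.3 CPM (3.92 ± 0.93, adjusted p = 0.0155). Slc1a4, a carrier of serine and alanine, rose from 0.759 CPM to between 5.41 and 33.5 CPM (adjusted p = 0.0168). Tumour 1 was the lowest of the 6 in both. Asns and Phgdh, of asparagine and serine synthesis, were called at adjusted p = 0.0480 and 0.0472 and lost the call without tumour 3, 5 or 6 (0.0688 to 0.0754 and 0.0558 to 0.0752). The list's 6 higher calls became 3 without tumour 3 or tumour 6. Chac1, which degrades glutathione, fell from 45.0 CPM to between 1.75 and 8.14 CPM (-3.62 ± 0.65, adjusted p = 0.00574).

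Genes of cell division were higher in every tumour. All 25 mitosis genes lay above muscle in all 6 tumours and 20 were called, against 15.6% of all tested genes, with a median log2 difference of 3.19. Mki67, the proliferation antigen, rose from 11 CPM to 76.7, 60.1, 109, 71.1, 139 and 56.1 CPM (2.95 ± 0.66, adjusted p = 0.0124). Top2a, topoisomerase II of dividing cells, rose from 4.46 CPM to 75.3, 75.7, 74.2, 53.5, 95.1 and 47.2 CPM (3.97 ± 0.57, adjusted p = 0.00269), with no overlap and little spread among tumours. Prc1, a spindle midzone protein, rose from 1.04 CPM to between 14.9 and 43.2 CPM (4.53 ± 0.81, adjusted p = 0.00558), and Bub1, a spindle checkpoint kinase, from 0.379 CPM to between 3.59 and 8.72 CPM (4.15 ± 0.85, adjusted p = 0.00916). Of 25 genes of DNA replication 11 rose and 1 fell (median 1.20), against 15.6% and 16.8% of all tested genes. Tyms, thymidylate synthase, rose from 1.04 CPM to between 9.40 and 19.8 CPM (3.86 ± 0.62, adjusted p = 0.00383), Uhrf1, which maintains DNA methylation, from 1.90 CPM to between 13.8 and 25.8 CPM (adjusted p = 0.00441) and Mcm5 of the replicative helicase from 2.18 CPM to between 13.4 and 21.1 CPM (adjusted p = 0.00367). Without tumour 3 the replication count was 7, with limma voom 6, and 5 when muscle, mitochondrial and model genes were left out of the scaling. In a fit to all 12 libraries 1 gene of each of these lists was called higher.

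The growth programme was not uniform. Ccnd2, the cyclin of G1 phase that led its list, rose from 26.8 CPM to 862, 1037, 1464, 834, 2320 and 920.3 CPM (5.53 ± 1.05, adjusted p = 0.00694), highest in tumour 5 and far above muscle in every tumour. Ccnd1 rose from 3.42 CPM to between 23.7 and 92.6 CPM (adjusted p = 0.0156), Ccnd3 from 17.6 CPM to between 42.7 and 98.9 CPM (adjusted p = 0.0229) and E2f1 from 0.569 CPM to between 3.39 and 13.5 CPM (adjusted p = 0.0309). Cdkn2b, an inhibitor of the cyclin D kinases, also rose, from 0.379 CPM to between 3 and 11.8 CPM (adjusted p = 0.0215), so 6 of 19 G1 genes rose and 3 fell, the latter near the 16.8% of all tested genes. The higher calls were 3 when muscle, mitochondrial and model genes were left out of the scaling, 3 with limma voom and 1 in the fit to all 12 libraries. Ribosome biogenesis went the other way: 9 of 24 genes fell and none rose (median -1.06). Ddx21, an RNA helicase of the nucleolus, fell from 293 CPM to between 52.6 and 74.8 CPM (-2.21 ± 0.29, adjusted p = 0.00193) and Rrp12 from 111 CPM to between 7.21 and 16.1 CPM (-3.19 ± 0.35, adjusted p = 0.00133). That count was 4 without tumour 3, 5 without tumour 5 and 4 without tumour 6, and 17 when muscle, mitochondrial and model genes were left out of the scaling. Among 18 targets of the tumour suppressor p53, 8 fell and 4 rose, against 16.8% and 15.6% of all tested genes. The higher calls were 2 without tumour 3. Sesn1 fell from 476 CPM to between 19.8 and 39.5 CPM (-4.15 ± 0.34, adjusted p = 0.000970), Mdm2, the ligase that degrades p53, from 187 CPM to between 42.3 and 58.8 CPM (-1.94 ± 0.28, adjusted p = 0.00276), and Cdkn1a, the inhibitor p21, from 192 CPM to between 18.2 and 61.3 CPM (-2.45 ± 0.47, adjusted p = 0.00710). Pmaip1, a trigger of cell death, rose from 0.569 CPM to between 4.61 and 10.3 CPM (adjusted p = 0.00953).

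Of 25 known targets of cAMP and CREB, the genes through which ATF1 normally acts, 7 rose and 4 fell, against 15.6% and 16.8% of all tested genes, with a median log2 difference of 1.31 against 0.61 for all genes. The promoters of 3 of the genes that rose are shown, since they carry the letters to which factors of this family bind. They are the 300 bases from 250 before to 50 after the start site in RefSeq's annotation of GRCm38.p6. Capitals mark the core TGACG or, on the other strand, CGTCA, which is part of the palindromic cAMP response element TGACGTCA.
Chga, chr12:102554691-102554990, plus strand: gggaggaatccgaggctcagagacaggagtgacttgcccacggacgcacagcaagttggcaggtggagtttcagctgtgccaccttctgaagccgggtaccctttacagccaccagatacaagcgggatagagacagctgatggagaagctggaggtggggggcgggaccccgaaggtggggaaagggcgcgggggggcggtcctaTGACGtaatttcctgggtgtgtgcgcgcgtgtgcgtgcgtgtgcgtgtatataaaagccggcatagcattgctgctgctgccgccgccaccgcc
Rgs2, chr1:144004100-144004399, minus strand: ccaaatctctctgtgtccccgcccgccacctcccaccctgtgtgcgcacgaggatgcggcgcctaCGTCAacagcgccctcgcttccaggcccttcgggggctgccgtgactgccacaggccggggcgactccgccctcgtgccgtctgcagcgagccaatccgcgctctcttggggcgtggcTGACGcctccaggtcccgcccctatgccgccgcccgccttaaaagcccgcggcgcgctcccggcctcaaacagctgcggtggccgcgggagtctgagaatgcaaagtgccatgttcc
Nr4a2, chr2:57123954-57124253, minus strand: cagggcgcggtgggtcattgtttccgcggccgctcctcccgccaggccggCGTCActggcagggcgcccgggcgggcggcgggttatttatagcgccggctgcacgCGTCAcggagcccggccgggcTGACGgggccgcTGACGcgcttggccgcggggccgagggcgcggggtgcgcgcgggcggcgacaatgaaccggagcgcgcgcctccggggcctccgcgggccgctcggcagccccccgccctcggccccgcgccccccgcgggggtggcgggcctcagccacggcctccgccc
The Chga window holds 1 such core, 44 bases before the start site; Rgs2 holds 2, at 185 and 67 bases before it; Nr4a2 holds 4, at 200, 144, 123 and 111 bases before it. None of the 3 holds the whole palindrome. Pde10a, the only other gene that rose with a promoter in the table, has neither in its 2 windows. A core was as common among the list members that fell: 3 of 4 held it (75%), as did 3 of the 4 that rose with a promoter (75%). Nr4a1, which fell, holds 4 cores. Over both strands, 5 of the 20 list members with a promoter held the palindrome (25%), namely Areg, Dusp1, Pcsk1, Scg2 and Sst, none of which passed the test, and 18 (90.0%) held a core. Among the 12751 tested genes with a promoter 3.23% held the palindrome and 32.6% a core, and among all 27025 genes with a promoter 2.03% and 23.0% did. The shares were 2.94% and 28.0% among the 2143 genes called higher with a promoter, below those of all tested genes, and 3.92% and 40.0% among the 2425 called lower. The list was made of known targets, so its share is no independent evidence, and a match of letters is not a binding site.

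The targets that rose included secreted proteins and regulators of signalling. Rgs2, which shuts off G protein signals, had 5.03 CPM in muscle and 59.2, 205, 197, 152, 156 and 275 CPM in the tumours (5.11 ± 0.97, adjusted p = 0.00694). Gem, a small GTPase that restrains calcium channels, had 3.23 CPM in muscle and 51.9 to 227 CPM in the tumours with a median of 90.5 CPM (5.01 ± 1.06, adjusted p = 0.00990). Nr4a2, an orphan nuclear receptor, had 7.40 CPM in muscle and 50.7, 68.4, 99.4, 167, 67.8 and 80.8 CPM in the tumours (3.59 ± 0.78, adjusted p = 0.0115). In these 3 genes no tumour overlapped muscle, and tumour 1 or 4 was the lowest. The prohormone Vgf had no count in muscle and 5.69, 101, 22.5, 12.8, 46.8 and 61.5 CPM in the tumours, at least 146-fold higher (adjusted p = 0.0223), and chromogranin A, Chga, none and 1.17, 19.4, 14.6, 1.88, 11.3 and 11 CPM, at least 34.8-fold higher (adjusted p = 0.0344, and 0.0531 without tumour 3 and 0.0526 without tumour 6). Both were lowest in tumours 1 and 4. The phosphodiesterases split: Pde10a rose from 30.7 CPM to between 146 and 380.4 CPM (adjusted p = 0.00986) and Pde3b from 3.51 CPM to between 22.8 and 31.3 CPM (adjusted p = 0.00277), while Pde4d fell from 1821 CPM to between 204 and 362 CPM (-2.55 ± 0.40, adjusted p = 0.00367). The immediate early members did not rise together. Nr4a1 fell from 45.3 CPM to between 9.93 and 16.8 CPM (adjusted p = 0.00606), Atf3 from 51.6 CPM to between 5.97 and 22 CPM (adjusted p = 0.0172) and the clock gene Per1 from 206 CPM to between 21.7 and 47.2 CPM (adjusted p = 0.00321). Nr4a3 had 82.0 CPM in muscle, 87.7 CPM in tumour 1, 145 CPM in tumour 4 and 345 to 372 CPM in the other 4 tumours (adjusted p = 0.149, and 0.0438 without tumour 1). The 7 higher calls of the list were 5 with limma voom and 1 in the fit to all 12 libraries.

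**Figure D4:**
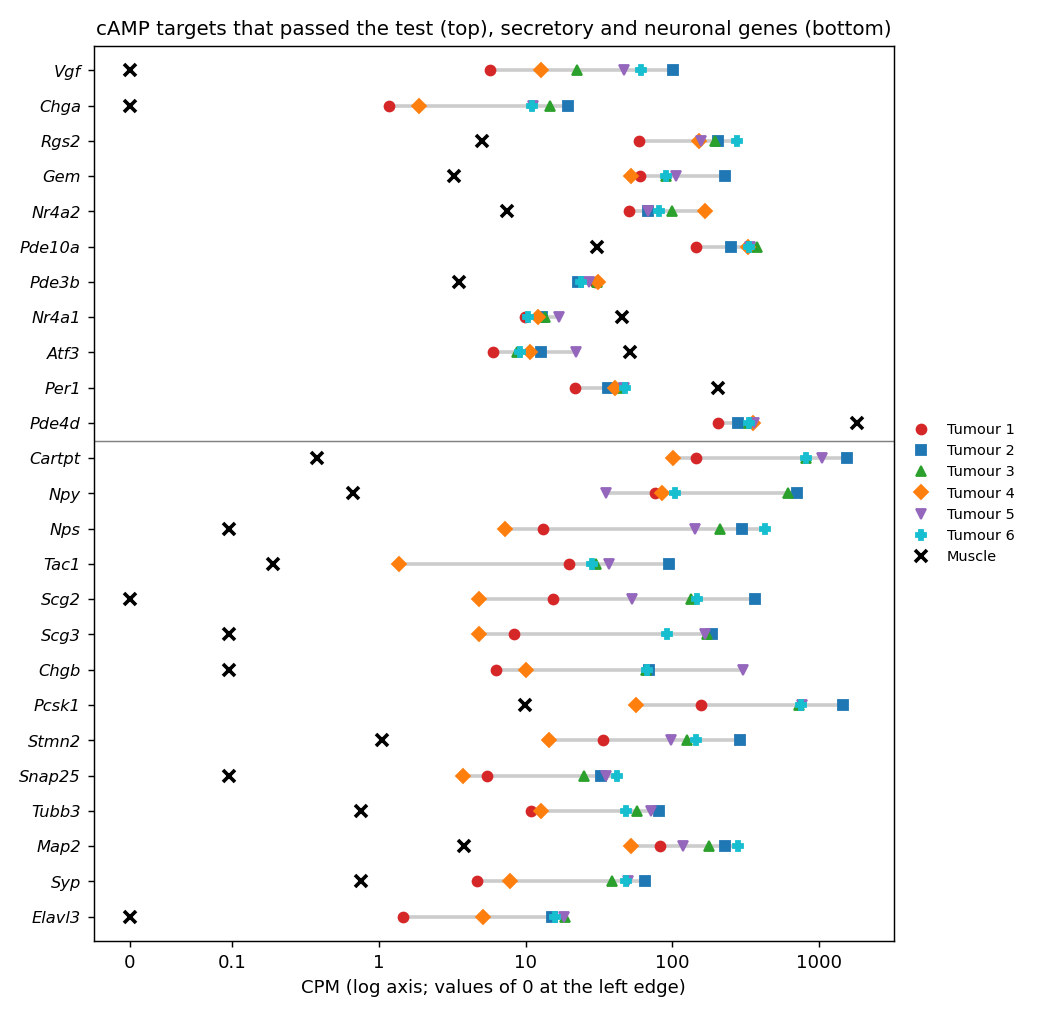
TMM-scaled CPM on a log axis of genes of the cAMP, neuropeptide and neuronal lists in the muscle library and in each of the 6 tumours, with values of 0 at the left edge. Muscle lies below all tumours except in Nr4a1, Atf3, Per1 and Pde4d, and tumours 1 and 4 are low in Vgf, Chga, Cartpt and Pcsk1.

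Neuropeptides and neuronal proteins stood higher in 4 tumours than in tumours 1 and 4. Of 21 tested neuropeptide, granin and convertase genes 14 lay above muscle in all tumours (38.3% of all tested genes did) and 4 were called, a share near the 15.6% of all tested genes. Cartpt, the precursor of a feeding peptide, had 0.379 CPM in muscle and 144, 1550, 816, 100.5, 1054 and 811 CPM in the tumours (10.91 ± 2.48, adjusted p = 0.0131). Npy, neuropeptide Y, had 0.664 CPM in muscle and 76.3, 703, 618, 84.4, 35.1 and 104 CPM (adjusted p = 0.0414, and 0.0561 without tumour 3 and 0.0553 without tumour 6). The summed level of the list was 1480 CPM in muscle, 1291 CPM in tumour 1, below muscle, 2124 CPM in tumour 4 and 4503 to 8633 CPM in the other 4 tumours. A sum follows the most abundant genes: as a median over the list, tumour 1 stood 3.48 above muscle on the log2 scale. The count of 4 was 10 without tumour 1, 10 without tumour 4, 2 without tumour 3, 2 without tumour 6, 9 when muscle, mitochondrial and model genes were left out of the scaling, and 0 with limma voom. Pcsk1, the convertase that cuts prohormones, had 9.96 CPM in muscle and 156, 1450, 734, 56.6, 770.3 and 755 CPM in the tumours (adjusted p = 0.0502, 0.0334 without tumour 1 and 0.0192 without tumour 4). Of 16 neuronal genes 9 rose, 1 of them with limma voom. Map2, a microtubule protein of dendrites, rose from 3.79 CPM to between 52.6 and 281 CPM (5.37 ± 1.19, adjusted p = 0.0122), Tubb3, neuronal tubulin, from 0.759 CPM to between 10.9 and 81.6 CPM (adjusted p = 0.0231) and Snap25, of the vesicle fusion complex, from 0.0949 CPM to between 3.76 and 41.8 CPM (adjusted p = 0.0245). Elavl3, a neuronal RNA-binding protein, had no count in muscle and 1.45 to 18.7 CPM in the tumours, at least 43.6-fold higher (adjusted p = 0.0194), and the neurofilament gene Nefl had at most 1.18 CPM in any tumour.

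Among 17 tested genes of neural crest and Schwann cells there were 4 that rose, a share near the 15.6% of all tested genes. The count was 7 without tumour 1, and 0 higher and 1 lower with limma voom. S100b, a calcium sensor of glia, rose from 0.190 CPM to 7.30, 28.6, 26, 13.5, 28.6 and 25.4 CPM (6.78 ± 1.19, adjusted p = 0.00531). Gap43, a growth cone protein, had no count in muscle and 9.03 to 40.8 CPM in the tumours, at least 84.1-fold higher (adjusted p = 0.00355), and Snai1, a repressor of epithelial genes, rose from 0.474 CPM to between 5.07 and 21.9 CPM (adjusted p = 0.0146). Sox9 had 10.8 CPM in muscle, 17.2 CPM in tumour 1 and 58.8 to 144 CPM in the others (adjusted p = 0.0634, and 0.00724 without tumour 1). Sox10, the regulator that defines the lineage, had 1.23 CPM in tumour 1, 0.0759 CPM in tumour 2 and no count in tumours 3 to 6. Muscle had 8 raw counts of it, on a scale where 3 counts in muscle are 0.285 CPM. Of the 20 genes of the melanocyte list 12 had enough counts to test, and 1 rose and 2 fell, against 15.6% and 16.8% of all tested genes. The list summed to 172 CPM in muscle and 68.3 to 165 CPM in the tumours. Mitf, the master regulator of pigment cells, which muscle also expresses, fell from 74.8 CPM to 29.8, 9.64, 15.1, 14.7, 21.5 and 17.2 CPM (-2.05 ± 0.46, adjusted p = 0.0129). Tyr, Tyrp1 and Mlana had at most 0.112 CPM in any tumour and none in muscle. Dct, an enzyme of pigment synthesis, had 10.6 to 24.5 CPM in tumours 1, 2, 3 and 6 and no count in tumours 4 and 5, and Pmel 0.167 to 2.81 CPM (adjusted p = 0.244 and 0.0581). Rab27a, which moves pigment granules, was called higher (2.37 to between 5.98 and 18.4 CPM, adjusted p = 0.0319) but not without tumour 3 (0.0607) or tumour 6 (0.0594), and Gpnmb was called lower (0.0389) but not without tumour 3, 4 or 6 (0.0600 to 0.0694).

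Among 26 receptor kinases and their ligands 8 rose and 2 fell, against 15.6% and 16.8% of all tested genes. Ntrk3, the receptor of neurotrophin 3, had 0.664 CPM in muscle and 80.2, 158, 151, 141, 148 and 228 CPM in the tumours (7.81 ± 0.87, adjusted p = 0.00137). It was lowest in tumour 1 and highest in tumour 6. Ret, the receptor of glial growth factors, rose from 2.56 CPM to between 20.9 and 115 CPM (adjusted p = 0.0163). Hgf, the ligand of Met, rose from 1.04 CPM to between 29.4 and 113 CPM (6.32 ± 1.01, adjusted p = 0.00368), and Met itself had 38.8 CPM in muscle and 4.27 to 24.8 CPM in the tumours (adjusted p = 0.107, and 0.0392 without tumour 1). Igf2 fell from 5.12 CPM to at most 0.342 CPM (adjusted p = 0.00701).

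Of 17 tested Wnt antagonists and targets 7 rose and 1 fell, against 15.6% and 16.8% of all tested genes. Of the 7, 5 belong to the Sfrp and Dkk families of secreted antagonists. Dkk3 rose from 7.49 CPM to 136, 238, 218, 213, 155 and 283 CPM (4.79 ± 0.67, adjusted p = 0.00242), Sfrp1 from 1.71 CPM to between 16.7 and 95.2 CPM (adjusted p = 0.0187) and Frzb from 0.190 CPM to between 3.68 and 48.1 CPM (adjusted p = 0.0239). Sfrp5 had 0.949 CPM in muscle and 16.3 CPM in tumour 1, 25.2 CPM in tumour 5 and 223 to 384 CPM in the other 4 (adjusted p = 0.0428, and 0.0591 to 0.0713 without tumour 2, 3, 4 or 6). Dkk2 lost its call without tumour 2, 3, 4 or 5 (0.0477, then 0.0580 to 0.0743). The gene that fell was the Wnt target Axin2, from 18.9 CPM to between 5.42 and 10.9 CPM (adjusted p = 0.0371), a call that ended without tumour 2, 3, 5 or 6 (0.0625 to 0.0749). The higher calls numbered 2 with limma voom and 1 in the fit to all 12 libraries. Among 15 tested cadherins and transition factors 6 rose and 1 fell. Cdh11, a cadherin of mesenchyme, rose from 1.61 CPM to between 23.8 and 105.3 CPM (5.30 ± 0.96, adjusted p = 0.00588), and Cdh3 had no count in muscle and 1.61 to 11.9 CPM in the tumours, at least 21.8-fold higher (adjusted p = 0.0160). Cdh1, the epithelial cadherin, had 0.285 CPM in muscle and 26.3, 154, 111, 7.35, 18.2 and 43.3 CPM in the tumours (adjusted p = 0.0445, and 0.0649 without tumour 3 and 0.0695 without tumour 6).

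Positional and oxygen-regulated genes had few calls. Both lists summed to less in every tumour than in muscle, but such sums follow the most abundant genes. The Hox list summed to 227 CPM in muscle and 86.4 to 149 CPM in the tumours, and the hypoxia list to 2425 and 503 to 1536 CPM. Of the hypoxia sum in muscle, 1242 CPM came from Bnip3 and 579 CPM from Egln3. In all tumours 5 of the 16 hypoxia genes lay above muscle and 5 below it, against 38.3% and 30.4% of all tested genes. Of 12 tested genes of the Hox list 3 fell and 0 rose, against 16.8% and 15.6% of all tested genes, and 1 fell without tumour 3. Hoxd8 fell from 71.8 CPM to 12.6, 16.2, 13.3, 14.5, 3.48 and 18.4 CPM (-2.46 ± 0.58, adjusted p = 0.0152), and Hoxa10 had 19.5 CPM in muscle and 12.7 to 39.2 CPM in the tumours (adjusted p = 0.536). Of 16 hypoxia genes 1 rose and 2 fell, against 15.6% and 16.8% of all tested genes. The list median of 0.21 turned to -0.38, with 5 genes lower and 0 higher, when muscle, mitochondrial and model genes were left out of the scaling. Egln3, a prolyl hydroxylase, fell from 579 CPM to between 1.35 and 30.4 CPM (-5.57 ± 0.94, adjusted p = 0.00480) and Bnip3, a mitophagy receptor, from 1242 CPM to between 7.35 and 123 CPM (-4.83 ± 0.97, adjusted p = 0.00850). Car9, the carbonic anhydrase of hypoxic tumours, had 93.5 CPM in tumour 2, 27.7 CPM in tumour 6 and 1.01 to 3.59 CPM in the other 4, against 0.759 CPM in muscle (adjusted p = 0.320). The hypoxia counts were 2 higher without tumour 1, 0 higher without tumour 6 and 4 lower without tumour 2.

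Matrix genes rose strongly, with collagens the most variable of them. All 16 collagen genes lay above muscle in every tumour and 9 were called, against 15.6% of all tested genes, with a median log2 difference of 5.45. Col12a1, a fibril-associated collagen, rose from 11.3 CPM to 459, 751, 1028, 867, 488 and 1016 CPM (6.09 ± 0.94, adjusted p = 0.00331), and Col15a1, of basement membrane zones, from 1.90 CPM to between 48.9 and 223 CPM (5.80 ± 1.10, adjusted p = 0.00687). Col1a1, the main chain of type I collagen, had 14.2 CPM in muscle and 1308, 4960, 6716, 48147, 2728 and 5793 CPM in the tumours (adjusted p = 0.0484). Tumour 4 stood far above the other tumours, and the call ended without tumour 2, 3, 5 or 6 (0.0579 to 0.0758). The summed level of the collagen list was 344 CPM in muscle, 108768 CPM in tumour 4 and 6526 to 24912 CPM in the other tumours. Without tumour 2 there were 5 collagen calls, and 3 without tumour 3 or tumour 6. Of 25 matrix proteins and their enzymes 10 rose. Fn1, fibronectin, rose from 29.4 CPM to 2347, 6208, 4762, 4943, 7022 and 10572 CPM (7.67 ± 1.47, adjusted p = 0.00716), lowest in tumour 1 and highest in tumour 6. Vcan, versican, rose from 9.77 CPM to between 198 and 1603 CPM (adjusted p = 0.0221), Sparc, a collagen chaperone, from 92.7 CPM to between 1356 and 5775 CPM (adjusted p = 0.0170) and Loxl2, a collagen crosslinker, from 0.854 CPM to between 8.79 and 58.4 CPM (adjusted p = 0.0182). Dcn, decorin, had 142 CPM in muscle and 24.0 to 185 CPM in the tumours (adjusted p = 0.722).

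Of 10 fibroblast markers 7 lay above muscle in all tumours and 0 below it in all, against 38.3% and 30.4% of all tested genes. Their median log2 difference was 3.56, and 0 were called lower. Thy1, a surface protein of several lineages, rose from 0.569 CPM to between 21.4 and 147 CPM (6.91 ± 1.37, adjusted p = 0.00805) and Dpt from 14.9 CPM to between 62.7 and 347 CPM (adjusted p = 0.0245), so with Pi16 and Col1a1 4 of 10 rose. Pdgfra had 37.0 CPM in muscle and 3.88 to 61.8 CPM in the tumours (adjusted p = 0.714). Of 13 tested cartilage and bone genes 4 rose, against 15.6% of all tested genes, and 7 without tumour 1. Runx2, the regulator of bone formation, rose from 2.66 CPM to 47.9, 25.7, 33.4, 69.2, 22.5 and 37.0 CPM (3.88 ± 0.79, adjusted p = 0.00896). Ibsp, a sialoprotein of bone, had no count in muscle and 3.93 to 13.6 CPM in the tumours, at least 30.3-fold higher (adjusted p = 0.00510). Col2a1, the collagen of cartilage, had 0.474 CPM in muscle and 3.12, 86.7, 41.7, 323, 13.0 and 126 CPM (adjusted p = 0.104, and 0.0326 without tumour 1).

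Many markers of macrophages and of antigen presentation were higher in the tumours. Of 14 macrophage genes 10 lay above muscle in all tumours and 8 rose, against 38.3% and 15.6% of all tested genes. C1qa, a complement subunit made by tissue macrophages, rose from 8.44 CPM to 103, 219, 165, 240.4, 329 and 159.8 CPM (4.59 ± 0.82, adjusted p = 0.00561), and Fcgr1, an antibody receptor, from 0.190 CPM to between 5.65 and 18.7 CPM (adjusted p = 0.00648). Adgre1, the F4/80 antigen, rose from 3.70 CPM to between 29.4 and 103 CPM (adjusted p = 0.00949). Tumour 5 was the highest in all 3. All 21 genes of antigen presentation and interferon response lay above muscle in every tumour and 16 rose, against 15.6% of all tested genes, with a median of 4.05. H2-Eb1 and H2-Ab1, chains of class II molecules, rose from 1.33 CPM to 362, 197, 295, 502, 452 and 319.6 CPM (8.05 ± 0.93, adjusted p = 0.00144) and from 2.66 CPM to between 252 and 501 CPM (7.13 ± 0.79, adjusted p = 0.00132). Cd74, their invariant chain, rose from 3.23 CPM to between 409 and 1440 CPM (8 ± 1.18, adjusted p = 0.00286), and Ciita, their master activator, from 0.285 CPM to between 7.97 and 117 CPM (adjusted p = 0.0290). Class I genes were higher too: H2-D1 rose from 51.1 CPM to between 331 and 1086 CPM (3.62 ± 1, adjusted p = 0.0261), and H2-K1 had 46.1 CPM in muscle and 217 to 879 CPM in the tumours (adjusted p = 0.0484, and 0.0578 to 0.0776 without tumour 3, 4 or 6). The count of 16 was 9 without tumour 6, 5 when muscle, mitochondrial and model genes were left out of the scaling, 8 with limma voom and 6 in the fit to all 12 libraries. The part of macrophages and other immune cells in these class II values was not tested.

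Lymphocyte genes were scarce in most tumours. Of 16 T and NK cell genes 12 had no count in muscle, 14 lay above it in all tumours (38.3% of all tested genes did) and 4 were called, against 15.6% of all tested genes. There were 2 calls without tumour 3, 5 or 6, 1 when muscle, mitochondrial and model genes were left out of the scaling, and 0 with limma voom. Cd4 rose from 0.0949 CPM to between 4.18 and 15.7 CPM (adjusted p = 0.00852), and macrophages can carry it as well. Cd3e, of the T cell receptor, had 12.6, 0.228, 1.21, 5.47, 0.842 and 1.32 CPM in the tumours and none in muscle (adjusted p = 0.113). The sum of the list was 146 CPM in tumour 1, 60.1 CPM in tumour 4 and 11.6 to 36.1 CPM in the others. No B and plasma cell gene was called in edgeR's test; their sum was 693 CPM in tumour 1, 4.93 to 43.6 CPM in the other tumours and 11.9 CPM in muscle, and Ms4a1, which encodes CD20, had 80.9 CPM in tumour 1 and at most 0.403 CPM in any other. No neutrophil or mast cell gene was called in this fit. Their sums were 5.16 to 47.5 CPM and 5.09 to 35.9 CPM in the tumours, against 54.9 and 10.3 CPM in muscle.

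Vessel genes had a list median of 1.15 on the log2 scale. Of 12 endothelial genes 8 lay above muscle in all tumours (38.3% of all tested genes did). The 2 called, Kdr and Eng, make a share near the 15.6% of all tested genes, at adjusted p = 0.0427 and 0.0305; there were 0 calls without tumour 2, 1 without tumour 3 and 1 without tumour 6. Pecam1 had 38.6 CPM in muscle and 41.4 to 109 CPM in the tumours (adjusted p = 0.310), and Cdh5 24.3 and 33.2 to 84.2 CPM (adjusted p = 0.192). Rgs5, a marker of pericytes, had 205 CPM in muscle and 217 to 473 CPM in the tumours (adjusted p = 0.436), while Abcc9, a potassium channel subunit of pericytes and also of muscle, fell from 591 CPM to between 18.7 and 102 CPM (-4.02 ± 0.73, adjusted p = 0.00601). Among the tumours, transcripts of fat cell genes stood highest in tumour 1, and whether it held fat was not tested. Adipoq and Plin1, which define adipocytes, had 39.8 and 24.2 CPM there, at most 1.48 and 1.17 CPM in any other tumour and 1.04 and 0.190 CPM in muscle. The sum of the adipocyte list was 1707 CPM in tumour 1 and 25.4 to 111 CPM in the others, against 3735 CPM in muscle. Car3, which muscle expresses, alone had 3147 CPM in muscle and 1175 CPM in tumour 1. The median of the list was 1.72 and turned to -1.93 without tumour 1. Erythroid genes lay below muscle in all tumours; the haemoglobin gene Hbb-bs had 4558 CPM in muscle, 821 CPM in tumour 1 and 1.54 to 70.5 CPM in the rest (adjusted p = 0.111, and 0.00424 without tumour 1). Of 7 such genes tested 2 were called lower, and 7 without tumour 1 and 1 without tumour 3 or 6. Of 12 epithelial genes tested 6 lay above muscle in all tumours (38.3% of all tested genes did). In that list 1 gene was called higher and 1 lower, against 15.6% and 16.8% of all tested genes. Epcam did not pass: it had 12, 52.6, 33.3, 1.03, 3.99 and 25.3 CPM and 0.0949 CPM in muscle (adjusted p = 0.0730, and 0.0298 without tumour 4). Krt5, of the basal layer of skin, had 1.34 CPM in tumour 1 and no count in the other tumours or in muscle.

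**Figure D5:**
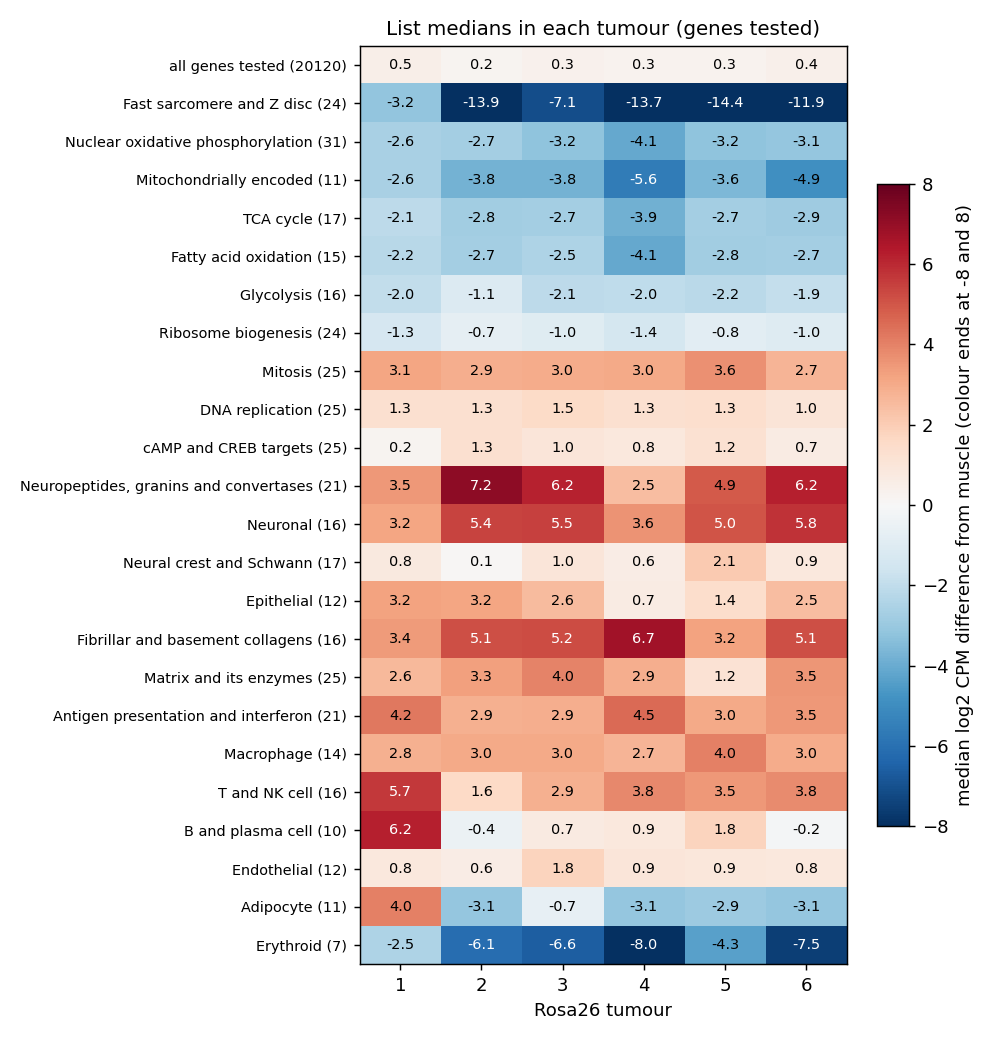
Each cell gives the median over a gene list of the log2 CPM difference between 1 tumour and the muscle library (red above muscle, blue below, colour limited to -8 and 8). Tumour 1 is nearest to muscle in the fast sarcomere list and has the highest B cell and adipocyte values, and tumour 4 has the highest collagen value.

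The medians of several lists differed widely among the tumours. The adipocyte list ranged from -3.07 to 4.05 on the log2 scale against muscle and the B and plasma cell list from -0.44 to 6.24, each highest in tumour 1, while the macrophage list stayed between 2.7 and 4.04. The 8 genes with the largest spread of log2 CPM among tumours, with the muscle and immunoglobulin lists and sex genes set aside, were Car3, Klhl31, Nrap, Comp, Cd163, Col8a2, Hbb-bs and Cmya5. Car3, Klhl31, Nrap and Cmya5 are genes that muscle expresses, and tumour 1 was the highest tumour in each, with 1175, 332, 414 and 1952 CPM. Comp, a cartilage matrix protein, had 347 CPM in tumour 4, 349 CPM in tumour 6, 8.31 to 62.6 CPM in tumours 1 to 3 and 0.403 CPM in tumour 5, and Col8a2, a collagen of short chains, 605 CPM in tumour 4 and 1.10 to 69.8 CPM in the others. Cd163, a scavenger receptor of macrophages, had 15.0 CPM in muscle, 221 CPM in tumour 5 and 0.342 CPM in tumour 4, below muscle. As medians over lists, the mitosis genes stood 2.7 to 3.64 above muscle on the log2 scale in the 6 tumours and the nuclear genes of oxidative phosphorylation -4.11 to -2.58 from it, so in both every tumour had the same sign. The fast sarcomere list ranged from -14.40 in tumour 5 to -3.19 in tumour 1, and the neuropeptide list from 2.49 in tumour 4 to 7.17 in tumour 2.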

How the data were processed

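RNA from 6 Rosa26 tumours and 1 skeletal muscle sample was compared by RNA sequencing. The values are whole-number counts per gene in a table deposited by the authors, without normalization. Per the submitters' processing notes, mm10, STAR 2.7.5a, RSEM, featureCounts, cutadapt and DESeq2 were used, with no role or order stated. For the annotation release and strand setting: not given in the sources used here. Symbols and positions came from GENCODE M21, which gave a symbol for 55450 of 55536 gene identifiers. Where strand was not used, reads of overlapping antisense genes cannot be told apart.

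Genes with enough counts (edgeR's filterByExpr, minimum count 10) were tested with edgeR 4.0.16 in R 4.3.3 by the quasi-likelihood test on TMM-scaled counts, tumours minus muscle, with Benjamini-Hochberg adjustment over all 20120 genes. Calls needed an adjusted p below 0.05 and a log2 difference of at least 1; ± is the standard error. Genes with no muscle count are given as bounds against 3 counts in muscle (0.285 CPM). The samples, members and gene lists were chosen with earlier results of these data known. Named genes were the 10 with the largest difference in each direction among called genes with at least 50 CPM, the 6 with the widest gap to the nearest tumour in each direction, up to 5 called members of each list at 5 CPM or more together with its first 3 members, the engineered loci, and the 8 most variable genes; others named behind a small count were chosen after their values were seen. No pair of tumours was as alike as 1 library deposited more than once would be; this does not show that the tumours came from separate animals. The test was tried on simulated counts of 16259 genes, 200 of them changed, and made 4 false calls. Alternatives were DESeq2 size factors, TMM without muscle, mitochondrial and model genes, DESeq2 1.42.0, limma 3.58.1 voom, other low count filters, a stricter threshold, a fit to all 12 libraries, tumours 5 and 6 summed, and leaving out tumours. A few genes that the naming rule covers are not reported here.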

Additional observations from a re-analysis of the deposited data

Results flagged for a closer look

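In 16 results 1 tumour stood apart from the other 5 by more than the spread of those 5 allows under Dixon's criterion for 6 samples. Chance marks about 1 in 20 groups, and 13 of the 198 tested genes named in the text were marked (6.57%), 8 of them for tumour 1, 2 for tumour 4 and 3 for tumour 5. No explanation of these values was tested.

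Tumour 1 stood high in the summed level of the myogenic regulators (1232 CPM, others 183 to 360 CPM) and of the adipocyte list (1707 CPM, others 25.4 to 111 CPM). Of the latter sum 1175 CPM came from Car3, which muscle expresses. It was also the high sample for Myoz2 (8.2 CPM, others at most 0.273), Myf5 (0.279 CPM, others at most 0.0390), Sox10 (1.23 CPM, others at most 0.0759), the B cell gene Ms4a1 (80.9 CPM, others at most 0.403), Abcc9 (102 CPM, others 18.7 to 31.1) and Krt5 (1.34 CPM, others 0). It was the low sample for Tmem132d (69.0 CPM, others 226 to 421) and Per1 (21.7 CPM, others 36.1 to 47.2).

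Tumour 4 had 30.0% of its counts in transcripts with ribosomal RNA sequence (others 1.40% to 6.80%). It was the low sample for 2 genes of the respiratory chain, Cox7b (7.005 CPM, others 31.9 to 75.2) and Ndufa1 (8.71 CPM, others 31.5 to 56.6). Tumour 5 was the low sample for Chrnb1 (1.54 CPM, others 5.47 to 8.43), Hk2 (40.3 CPM, others 73.9 to 98.6) and Hoxd8 (3.48 CPM, others 12.6 to 18.4).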

How the results depend on the processing

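No paired analysis was possible because muscle has 1 library and shares no replicate series with the tumours. Every comparison rests on that library, whose own variation was not measured. The count of genes called higher, 3145, was 1836 with TMM factors made without muscle, mitochondrial and model genes, 1513 with limma voom, 1223 in the fit to all 12 libraries, 4741 without tumours 1 and 4, and 1909 when the difference was tested against a log2 difference of 1. The count called lower, 3378, was 1885 under that last test. At 4-fold in place of 2-fold, every tumour lay above muscle in 2240 genes and below it in 1469. Leaving out each tumour in turn gave 2206 to 3738 genes higher, 2626 to 3858 lower, 4530 to 5048 at least 2-fold above and 3354 to 3701 at least 2-fold below. The cause of these shifts was not tested. Of the 149 called genes named in the text, 58 lost the call in the fit to all 12 libraries, 34 with limma voom, 23 without a low count filter, 23 against a log2 difference of 1, 13 with DESeq2's Wald test, 13 with TMM without muscle, mitochondrial and model genes, 11 with tumours 5 and 6 summed and 6 with DESeq2 size factors. Leaving out tumour 3 ended 20 of these calls and tumour 6 ended 18. Over all named genes and settings, 9989 values kept direction and side of the threshold, 701 lost the threshold, 499 gained it, 171 values of genes without a call changed sign, and no called gene did.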

Other observations

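The muscle library held transcripts of genes that adult fibres carry at low levels and that developing or denervated fibres are known for. Myh3, the embryonic myosin heavy chain, had 137 CPM in muscle and 0.0366 to 2.68 CPM in the tumours (log2 difference -7.30 ± 1.13, adjusted p = 0.00373 in edgeR's test). Myh8, the perinatal form, had 116 CPM in muscle and 0 to 2.06 CPM in the tumours (adjusted p = 0.0101 in edgeR's test). Chrng, the fetal subunit of the acetylcholine receptor, had 2.18 CPM in muscle and 0 to 0.0780 CPM in the tumours (adjusted p = 0.00644 in edgeR's test). With 1 muscle library, whether other muscle samples carry these transcripts was not tested.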
